A study of Mus musculus with 9 samples.

Results

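The Spata genes are those named "spermatogenesis associated", a naming group collected by expression in the testis more than by shared sequence. The 29 members described here are all genes of the count table whose symbol is Spata followed by a digit, with 1 symbol left out, among 19991 genes in all. Members were taken by symbol, and the family itself was picked with earlier results of these data known. RNA was taken from the testes of ICR mice at the age of 8 weeks, in 3 groups of 3 libraries: mice injected with AZ82 at 1 µM, with CW069 at 50 µM, or with PBS (Control). AZ82 and CW069 are known here by their code names as inhibitors of KIFC1, a minus-end-directed kinesin of the spindle and of the microtubule manchette that shapes the sperm head. The labels give neither the time after injection nor the route, and do not say whether the 3 libraries of a group came from separate animals, so p-values measure the spread between these libraries, which may be technical in part.

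A sperm is built from a round spermatid in steps: an acrosome forms over the nucleus, the head is shaped, a connecting piece couples head to tail, and mitochondria wrap the midpiece. Products of Spata genes sit at several of these steps. SPATA16 is a Golgi-derived acrosomal protein whose loss gives round-headed sperm, SPATA6 is needed for the connecting piece, SPATA19 for the mitochondria of the midpiece, SPATA33 anchors the phosphatase calcineurin to sperm mitochondria, and SPATA46 is a nuclear envelope protein of the sperm head. SPATA18, also called Mieap, takes part in mitochondrial quality control. Other members also work outside the testis: SPATA2 joins the deubiquitinase CYLD to the linear ubiquitin ligase complex, SPATA5 and SPATA5L1 are AAA ATPases of ribosome maturation, SPATA7 belongs to the connecting cilium of photoreceptors, and SPATA13 is an exchange factor for small GTPases.

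The members lie on 12 chromosomes, with 6 of them on chromosome 13: Spata9, Spata31 and the 4 Spata31d1 genes. The Spata31d1 genes are related in sequence, which bears on how far their counts can be told apart. The first 90 coding bases of 3 of them are shown from the annotated mouse transcripts (GENCODE M21, GRCm38), aligned without gaps, with capitals at each base that differs from Spata31d1a.
Spata31d1a: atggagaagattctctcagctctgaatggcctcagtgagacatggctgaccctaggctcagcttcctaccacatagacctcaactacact
Spata31d1b: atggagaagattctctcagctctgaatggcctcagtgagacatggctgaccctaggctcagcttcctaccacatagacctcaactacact
Spata31d1c: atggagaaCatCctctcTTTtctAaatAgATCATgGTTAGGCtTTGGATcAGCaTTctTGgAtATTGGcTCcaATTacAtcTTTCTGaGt
Spata31d1a and Spata31d1b had the same letters throughout this stretch, whereas Spata31d1c differed from Spata31d1a at 51 of 90 positions. Over their whole coding sequences Spata31d1a and Spata31d1b were 79.6% identical, and the other pairs among Spata31 and the Spata31d1 genes 60.6% to 67.8%. Of all pairs of members, this was the only pair whose longest transcripts shared stretches of 100 bases: 787 such windows, 15.06% of those of Spata31d1a and 18.79% of those of Spata31d1b. Reads from these stretches can be lost or misplaced between both genes, and their counts carry that uncertainty.

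Promoters are shown for 4 members: Spata4 and Spata20, highest in level, Spata18, which varied most between libraries, and Spata7. Those of Spata18 and Spata7 were chosen after values were seen. Each window runs from 250 bases before to 50 after the annotated start (RefSeq, GRCm38.p6), 5′ to 3′ along the gene's own strand. Capitals mark either of the motifs searched on both strands, TGACGTCA, the element bound by CREB and CREM, or GTTGCCA, a part of the X-box bound by RFX factors. The windows lie at chr8:54600531-54600830 (plus strand) for Spata4, chr11:94485261-94485560 (minus strand) for Spata20, chr5:73651130-73651429 (plus strand) for Spata18 and chr12:98627892-98628191 (plus strand) for Spata7.
Spata4: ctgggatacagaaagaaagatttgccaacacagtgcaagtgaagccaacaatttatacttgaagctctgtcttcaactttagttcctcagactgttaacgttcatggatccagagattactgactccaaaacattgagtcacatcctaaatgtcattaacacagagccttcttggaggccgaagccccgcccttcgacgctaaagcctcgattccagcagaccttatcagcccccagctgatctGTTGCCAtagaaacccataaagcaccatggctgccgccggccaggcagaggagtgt
Spata20: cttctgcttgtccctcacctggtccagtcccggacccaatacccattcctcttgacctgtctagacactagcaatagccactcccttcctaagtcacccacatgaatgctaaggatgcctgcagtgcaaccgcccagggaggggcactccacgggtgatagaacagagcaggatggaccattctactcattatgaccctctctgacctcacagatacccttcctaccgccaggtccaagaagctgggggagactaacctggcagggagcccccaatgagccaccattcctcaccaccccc
Spata18: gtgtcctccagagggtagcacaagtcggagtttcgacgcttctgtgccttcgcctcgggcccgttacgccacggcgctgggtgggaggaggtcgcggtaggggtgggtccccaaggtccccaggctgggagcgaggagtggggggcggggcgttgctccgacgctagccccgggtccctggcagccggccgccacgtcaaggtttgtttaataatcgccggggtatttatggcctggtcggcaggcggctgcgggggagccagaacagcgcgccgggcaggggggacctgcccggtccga
Spata7: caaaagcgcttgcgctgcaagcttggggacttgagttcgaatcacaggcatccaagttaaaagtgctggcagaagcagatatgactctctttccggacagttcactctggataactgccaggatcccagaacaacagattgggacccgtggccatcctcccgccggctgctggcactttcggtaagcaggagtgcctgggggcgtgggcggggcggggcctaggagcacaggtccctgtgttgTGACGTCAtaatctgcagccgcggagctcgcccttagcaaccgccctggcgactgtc
Promoters were listed for 27 of the 29 members, 34 windows in all. TGACGTCA was present in 1 of these windows, that of Spata7, beginning at position -7, against 1.79% of 32851 windows of all genes. GTTGCCA was present in 3, those of Spata4 (at -6), Spata33 (at 5) and Spata31d1a (at -245), against 4.38% of all windows. These matches describe the letters of the windows. The windows of Spata20 and Spata18 held neither motif, and the G and C content was 48.3% in Spata4, 56.7% in Spata20, 69.7% in Spata18 and 59.3% in Spata7.

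Total counts ran from 13856070 to 18102593 per library, and all 29 members passed the filter on low counts, among 15834 genes tested. The lowest count of a member in any library was 75, for Spata5l1. Members together took 0.864%, 0.902% and 0.920% of the counts in AZ82 1 to 3, 0.884%, 0.844% and 0.900% in CW069 1 to 3, and 0.888%, 0.870% and 0.666% in Control 1 to 3. Control 3 thus stood below the other 8 libraries. Markers of testis cell types, germ and somatic, had counts in every list, with 0 genes at 0 in all libraries. Control 3 stood apart in late spermatid markers: the 14 genes of that list summed to 9725 CPM (counts scaled to a common library total, with TMM factors) in Control 3, against 22760 and 20428 CPM in Control 1 and 2.

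Levels of members are compared in CPM per kilobase (kb) of the longest annotated coding transcript. Spata4 had 726, 821 and 823 CPM in AZ82 1 to 3, 871, 750 and 825 CPM in CW069 1 to 3, and 787, 785 and 707 CPM in Control 1 to 3. It was the highest member, at 747 ± 52.4 in AZ82, 771 ± 57.6 in CW069 and 719 ± 42.9 CPM per kb in Control (SD, n = 3 each). Spata20, which encodes a thioredoxin-like protein, came next at 561 ± 2.17, 526 ± 48.5 and 450 ± 102 CPM per kb in AZ82, CW069 and Control. Over all 9 libraries Spata19 (447 ± 64.2), Spata24 (400 ± 41.0), Spata21 (393 ± 57.2) and Spata6 (384 ± 54.3 CPM per kb, SD, n = 9) followed. Spata24, Spata21 and Spata6 differed from each other by less than the SD of any of them. Spata24 had 279, 308 and 303 CPM in AZ82, 314, 286 and 276 CPM in CW069, and 289, 286 and 214 CPM in Control. Spata3 (308 ± 77.7) and Spata18 (269 ± 73.5) came next, and Spata16, the acrosomal member, stood at 185 ± 9.34 CPM per kb. A run of 15 members lay below it, from Spata7 at 184 ± 29.1 CPM per kb down to Spata31d1a at 32.8 ± 6.15 CPM per kb.

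The lowest 5 members were Spata5, Spata2l, Spata2, Spata5l1 and Spata13, while Spata7, which also works outside the testis, ranked above most members. Spata5 was at 25.6 ± 1.14, Spata2l, a paralog of Spata2, at 12.1 ± 0.949, Spata2 at 5.59 ± 0.398, Spata5l1 at 3.87 ± 0.437 and Spata13 at 1.67 ± 0.165 CPM per kb (SD, n = 9). Neighbours in these last 5 ranks were further apart than their SDs. The order depends on which transcript is counted. With the shortest coding transcript in place of the longest, Spata6 (478 against 2466 bases) would stand at 1982 CPM per kb, above Spata4 at 746, Spata33 (486 against 4074 bases) at 626 in place of 74.7, and Spata1 (411 against 2712 bases) at 543 in place of 82.3 CPM per kb. Spata13 (686 against 7517 bases) would stand at 18.3 and Spata2l (448 against 2707 bases) at 73.4 CPM per kb, so neither the first nor the last rank is fixed. Spata5l1 has no coding transcript in this annotation, and its length is that of a transcript annotated as non-coding.

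**Figure D1:**
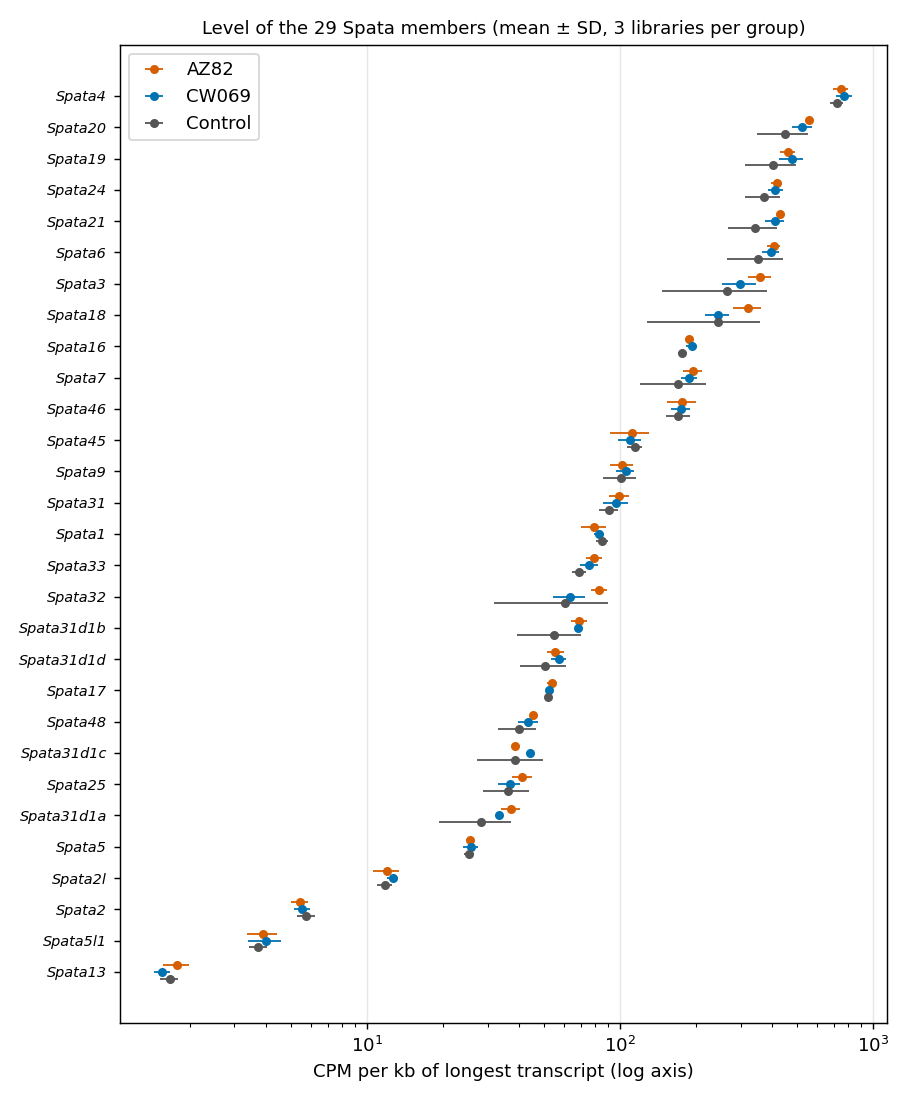
Level of each of the 29 members in CPM per kb of the longest transcript (log axis), as group mean with SD over 3 libraries for AZ82, CW069 and Control. Levels run from 1.67 CPM per kb for Spata13 to 746 CPM per kb for Spata4 over the 9 libraries, and the widest bars are those of Control for Spata3, Spata18 and Spata32.

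The question put by the design is how testis expression differed after each KIFC1 inhibitor, here for the Spata genes. With edgeR's quasi-likelihood test, 0 members were called higher and 0 lower after AZ82 at an adjusted p under 0.05 over all genes, against 0.0% of all genes in each direction. At an unadjusted p under 0.05 there were 2 of 29 members higher and 0 lower, where 4.04% of all genes were higher and 4.79% lower. That count over both directions was 8 without Control 1, 7 without Control 2 and 0 without Control 3, 0 without AZ82 2 or with a replicate block, 1 without AZ82 1, AZ82 3, CW069 1 or CW069 2, and 5 by DESeq2, by limma-voom or with no filter. The share of all genes was taken only in the edgeR fit above, so the counts of these other fits are not set against all genes. DESeq2 and limma-voom called 0 members. DESeq2 called 0.0379% of all genes and limma-voom 0.00632%. The log2 fold change was above 0 in 26 of 29 members, against 49.7% of all genes, with a median of 0.14 (all genes -0.0010) and a range of -0.10 to 0.44. Without Control 3 the median was 0.04, and 22 of 29 members were above 0, against 49.8% of all genes. Without Control 2 it was 0.23, and with scaling to library size alone 0.06, beside -0.08 for all genes. Every AZ82 library lay above Control 1 and 2 in 5 members (Spata21, Spata16, Spata20, Spata33 and Spata5) and below them in 1 (Spata1), against 12.6% and 13.2% of all genes.

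Spata33 and Spata21 were the members with the smallest p after AZ82. Spata33 was at 306, 350 and 313 CPM in AZ82 1 to 3, against 284, 298 and 262 CPM in Control 1 to 3. Every AZ82 library was above every Control library, with a log2 fold change of 0.20 ± 0.08 (SE; edgeR adjusted p = 0.554), and 0.15 without Control 3. The nearest values, in AZ82 1 and Control 2, carry TMM factors of 0.977 and 1.005, and their separation depends on that scaling. Spata21 was at 1076, 1085 and 1078 CPM in AZ82, against 997, 942 and 648 CPM in Control. The AZ82 values were close together and all above Control, by 0.32 ± 0.14 on the log2 scale (adjusted p = 0.555), and by 0.15 without Control 3.

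Spata20 was the other member whose groups did not overlap. It was at 1468, 1472 and 1479 CPM in AZ82, against 1358, 1316 and 876 CPM in Control (log2 difference 0.32 ± 0.14, adjusted p = 0.568; 0.14 without Control 3). The AZ82 libraries differed among themselves by far less than the Control libraries. In all, 3 of 29 members lay above every Control library and 0 below, where 6.65% of all genes lay above and 8.62% below. Spata31d1a, the fourth by p, was at 198, 180 and 214 CPM in AZ82, against 167, 188 and 96.4 CPM in Control, with overlap (0.39 ± 0.19, adjusted p = 0.575; 0.15 without Control 3).

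With all libraries 3 members were lower after AZ82, by at most 0.10 on the log2 scale. Spata1 was at 187, 233 and 224 CPM in AZ82, against 238, 236 and 215 CPM in Control (-0.10 ± 0.09, adjusted p = 0.725; -0.15 without Control 3, where all 3 AZ82 libraries lay below Control 1 and 2). Spata2 had a log2 fold change of -0.09 (adjusted p = 0.782), with 22.9, 22.6 and 19.9 CPM in AZ82, against 21.2, 23.5 and 24.8 CPM in Control. Spata45 had -0.04 (adjusted p = 0.929), with 45.0, 59.3 and 43.7 CPM in AZ82, against 49.4, 54.9 and 48.1 CPM in Control. The groups overlapped for all of these 3 members with 9 libraries. Spata31d1c was at 132, 125 and 136 CPM in AZ82, against 132, 168 and 91.3 CPM in Control, a log2 fold change of 0.0072 that turned to -0.20 without Control 3 (adjusted p = 0.638), then the furthest from 0 of the 29 members after AZ82.

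After CW069, edgeR again called 0 members higher and 0 lower, against 0.0% of all genes in each direction, and DESeq2 and limma-voom called 0 members, against 0.177% and 0.0% of all genes. At an unadjusted p under 0.05 there were 0 members, where 3.63% of all genes were higher and 3.71% lower. There was 1 member without Control 1, 5 without Control 2 and 3 without Control 3 (Spata18 and Spata32 lower, Spata16 higher). No share of all genes was taken with a library left out. The log2 fold change was above 0 in 24 of 29 members, against 49.0% of all genes, with a median of 0.11 (all genes -0.0038) and a range of -0.09 to 0.32. Without Control 3 the median was -0.0013, and 14 of 29 members were above 0, against 49.0% of all genes. Without Control 2 it was 0.18, and with scaling to library size alone 0.06, beside -0.05 for all genes. Every CW069 library lay above Control 1 and 2 in 1 member (Spata16) and below them in 2 (Spata18 and Spata1), against 12.7% and 13.9% of all genes. The doses of the inhibitors differ, and both comparisons share the Control libraries.

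Spata31d1b had the smallest p after CW069. Its levels were 288, 293 and 300 CPM in the CW069 libraries, against 233, 303 and 169 CPM in those of Control (difference on the log2 scale 0.32 ± 0.16, adjusted p = 0.696; 0.13 without Control 3). Control 2 exceeded all CW069 libraries, so the groups overlapped. Spata21 followed at 994, 976 and 1142 CPM in CW069, against 997, 942 and 648 CPM in Control (0.27 ± 0.14, adjusted p = 0.698; 0.10 without Control 3). Spata19, the midpiece member, was at 365, 295 and 338 CPM in CW069, against 312, 324 and 208 CPM in Control (0.24 ± 0.15, adjusted p = 0.734; 0.07 without Control 3). For each of these 3 genes Control 3 was the lowest of the 9 libraries.

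Spata16 behaved otherwise: it was the only member with every CW069 library above every Control library, at 411, 376 and 378 CPM in CW069, against 350, 347 and 375 CPM in Control. The nearest values, in CW069 2 and Control 3, carry TMM factors of 1.02 and 1.09, and their separation depends on that scaling. The log2 fold change of Spata16 was 0.12 ± 0.06 (adjusted p = 0.699) and 0.16 without Control 3 (adjusted p = 0.501). After AZ82 it was at 376, 386 and 371 CPM, with a log2 fold change of 0.08 (adjusted p = 0.700; 0.11 without Control 3). With 1 of 29 members above and 0 below every Control library after CW069, the share lay under that of all genes (6.13% above and 7.24% below). The lower members by p after CW069 were Spata13 (-0.09), Spata2 (-0.05), Spata45 (-0.07) and Spata1 (-0.03), with an adjusted p of 0.871 or more by edgeR. Spata13 was at 11.2, 12.7 and 11.2 CPM in CW069, against 13.5, 12.5 and 11.5 CPM in Control.

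Taking the mean of both inhibitors against Control, edgeR, DESeq2 and limma-voom each called 0 members. By edgeR 0.0% of all genes were higher and 0.00632% lower, and DESeq2 called 0.0947% and limma-voom 0.00632%. At an unadjusted p under 0.05 there were 3 members higher (Spata21, Spata31d1b and Spata33, adjusted p = 0.510 to 0.516) and 0 lower, against 4.31% and 5.27% of all genes. That count was 6 without Control 1, 8 without Control 2 and 1 without Control 3, and 0 to 2 when any inhibitor library was left out. For these fits too no share of all genes was taken. Of 29 members 26 were above 0, against 49.1% of all genes (16, against 48.3%, without Control 3). In 0 members did all 6 inhibitor libraries lie above or below all Control libraries, against 2.19% and 2.92% of all genes, and with Control 3 left aside Spata16 lay above and Spata1 below (5.63% and 5.79% of all genes). The median log2 fold change was 0.12, but 0.02 without Control 3 and 0.21 without Control 2.

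The 95% intervals limit what the depth and the spread could show. They lay within 1.5-fold of no change in 21 of 29 members after AZ82 and in 24 of 29 after CW069, and within 2-fold in 26 and 29. Spata17, which encodes a calmodulin-binding protein, was at 86.8, 79.6 and 85.1 CPM in AZ82, 83.0, 79.6 and 82.4 CPM in CW069, and 80.6, 83.7 and 78.7 CPM in Control. It had an interval of -0.09 to 0.19 on the log2 scale after AZ82 and -0.12 to 0.15 after CW069. The widest intervals belonged to Spata32, Spata18 and Spata3: for Spata18 they ran from -0.25 to 1.05 after AZ82 and from -0.65 to 0.65 after CW069.

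**Figure D2:**
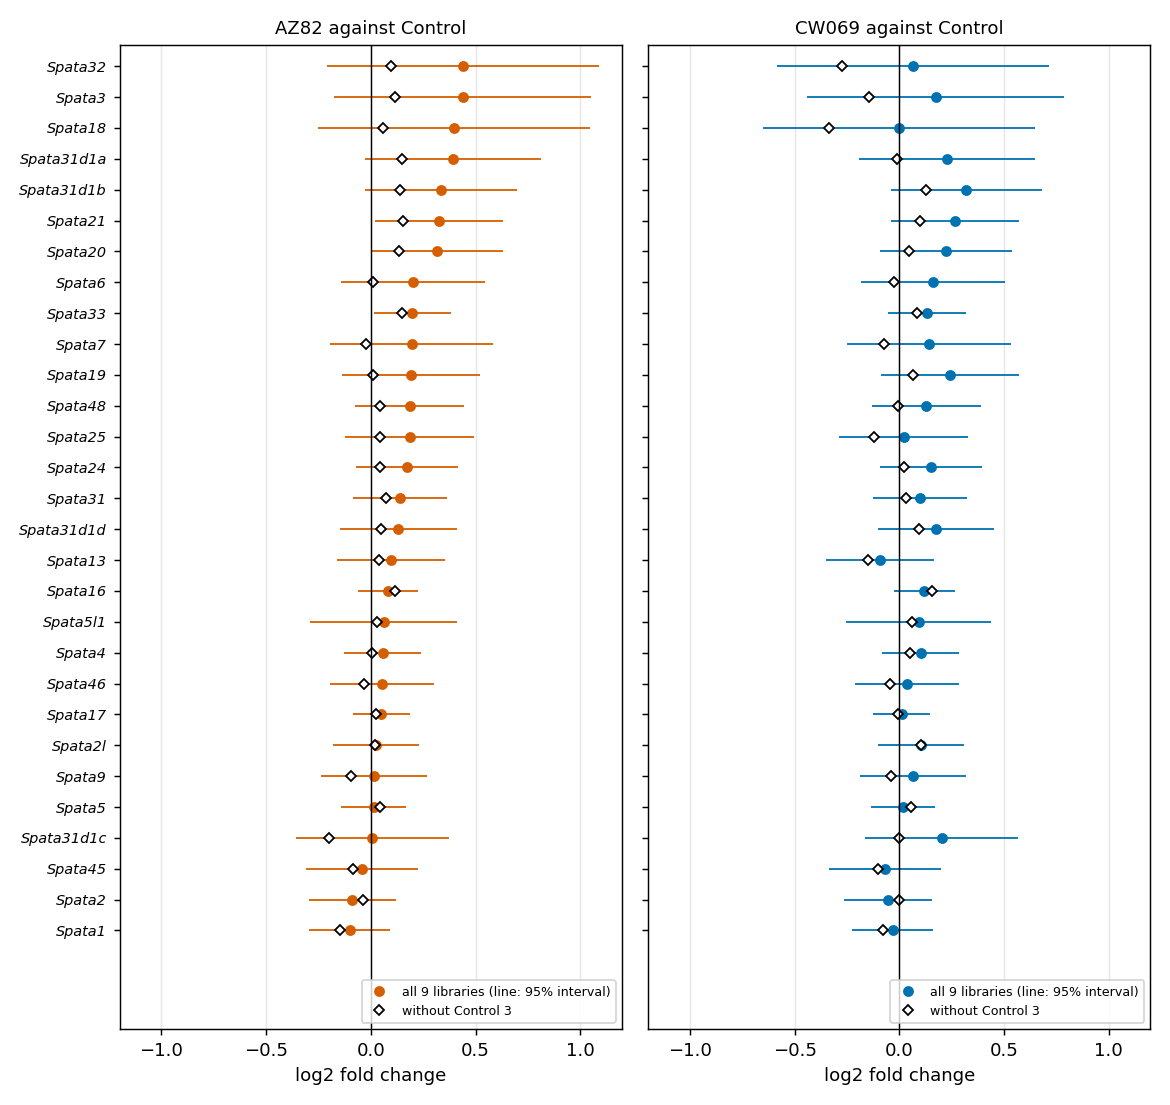
Log2 fold change of each member against Control for AZ82 (left) and CW069 (right), ordered by the value after AZ82. Filled circles use all 9 libraries with 95% intervals as lines, and open diamonds leave out Control 3; the AZ82 median is 0.14 with all libraries and 0.04 without Control 3, the CW069 median 0.11 and -0.0013.

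Control 3 was the library in which Spata members departed most from the rest. There 23 of 29 members were lower than in both Control 1 and Control 2, against 36.2% of all genes, and 20 of 29 were at the lowest value of the 9 libraries, against 18.8% of all genes. These counts describe a single library, with no test. The median member stood at -0.35 on the log2 scale relative to the mean of Control 1 and 2, and 14 members stood below 75% of that mean, against 13.1% of all genes. Fewer cells of a type and less RNA per cell cannot be told apart in whole testis.

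Members fell into a graded order in Control 3. Spata32, which encodes an acrosomal protein, was at 31.5 CPM in Control 3, against 93.3 and 78.5 CPM in Control 1 and 2, which is 36.7% of their mean. Spata18 was at 229 CPM in Control 3, against 672 and 545 CPM (37.6%), and Spata3 at 149 CPM, against 403 and 331 CPM (40.5%). These 3 members also had the widest ranges over 9 libraries, 3.10-fold, 3.15-fold and 3.01-fold.

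A second tier stood at 54.3% to 66.8% of the mean of Control 1 and 2: Spata31d1a, Spata7, Spata31d1c, Spata31d1b, Spata6, Spata19, Spata20 and Spata21. Spata6, the connecting piece member, was at 628 CPM in Control 3, against 1056 and 924 CPM in Control 1 and 2, and at 934, 1013 and 1056 CPM in AZ82 and 1001, 887 and 1029 CPM in CW069. Spata7 was at 236 CPM, against 434 and 375 CPM. A further 3, Spata25, Spata48 and Spata24, stood at 72.3% to 74.6%.

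At the other end, Spata2 (111%), Spata16 (108%) and Spata5 (108%) were at or above the mean of Control 1 and 2 in Control 3, and Spata2l was at 99.9%. Spata5 was at 83.1, 87.7 and 82.4 CPM in AZ82, 91.0, 79.3 and 83.8 CPM in CW069, and 81.0, 82.2 and 87.7 CPM in Control. Spata4, the highest member, stood at 90.01%, with 707 CPM in Control 3, against 787 and 785 CPM in Control 1 and 2. The narrowest ranges over the 9 libraries were those of Spata17 (1.10-fold), Spata5 (1.15-fold) and Spata16 (1.18-fold). By role, 6 of 8 acrosome and sperm head members (Spata16, Spata32, Spata46, Spata31 and the Spata31d1 genes) and 3 of 3 mitochondrial members (Spata18, Spata19, Spata33) were lower in Control 3 than in both other Control libraries, as were 0 of 2 CYLD partners and 0 of 2 AAA ATPases. All 10 members with no role given here were lower as well, as were Spata6, Spata7, Spata13 and Spata20. Spata7 (58.5% of the mean of Control 1 and 2) and Spata13 (88.6%) are among the members named above as also working outside the testis. A gene with no role given here may still have one in sperm.

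Cell type markers moved in Control 3 as follows. All 14 late spermatid markers, among them the protamines and transition proteins, were lower in Control 3 than in both other Control libraries, with a median log2 ratio of -1.18. Of 10 round spermatid markers 9 were lower, with a median of -0.19, while 2 of 10 spermatocyte markers were lower (median 0.09), 5 of 10 of spermatogonia (-0.05), 6 of 10 of Sertoli cells (-0.07), 3 of 10 of Leydig cells (-0.02), 6 of 10 of macrophages (-0.15), 2 of 6 of peritubular myoid cells (0.02) and 2 of 6 of adipocytes (-0.23). The 4 tested red blood cell markers were all lower (-1.24). The part of these cell types in the level of any member was not tested.

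**Figure D3:**
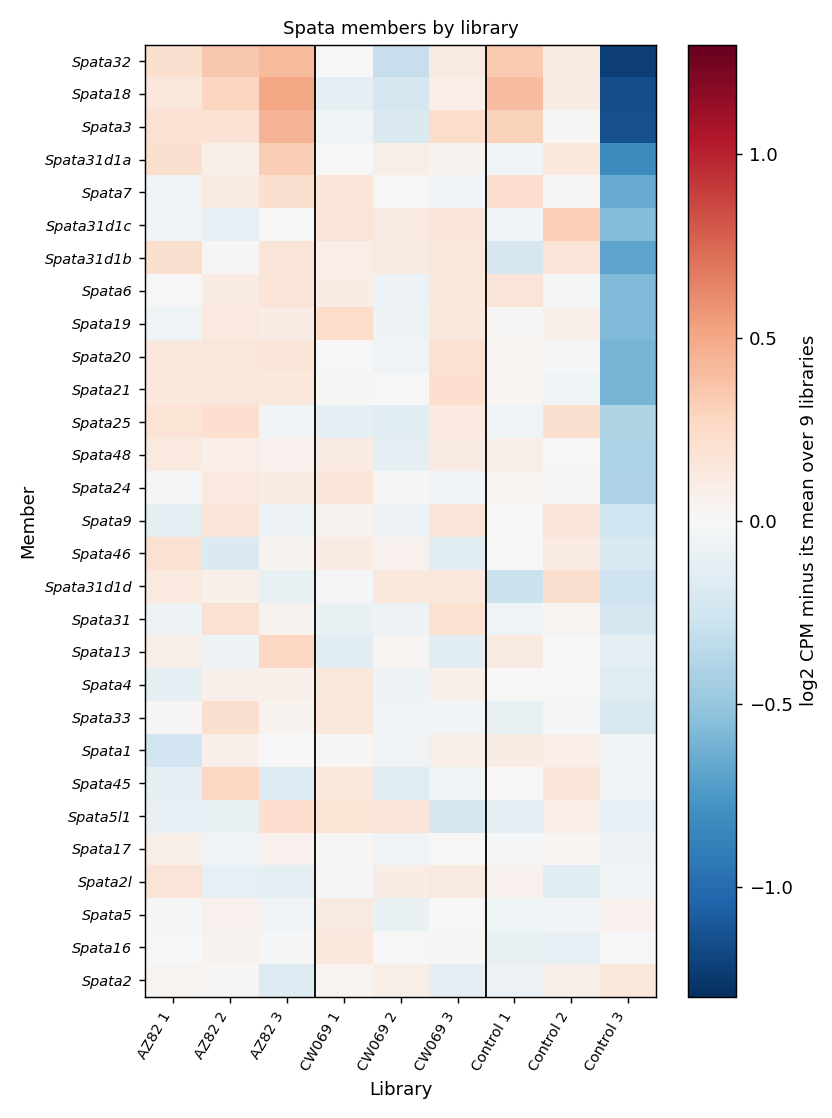
Log2 CPM of each member minus its mean over the 9 libraries, with members ordered by the ratio of Control 3 to Control 1 and 2. The column of Control 3 is low for the upper rows, led by Spata32, Spata18 and Spata3, and near 0 or above it for Spata5, Spata16 and Spata2 at the bottom.

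Some members kept a steady ratio to each other while their levels varied. The CPM of Spata20 over that of Spata21 lay between 1.32 and 1.40 in the 9 libraries, although the genes varied 1.74-fold and 1.76-fold. Spata18 over Spata3 lay between 1.39 and 1.67, and Spata32 over Spata18 between 0.136 and 0.155. Against members that varied little, the ratios moved: Spata18 over Spata16 was 0.610 in Control 3, against 1.92 and 1.57 in Control 1 and 2, and its highest value was 1.94, in AZ82 3. These pairs were chosen after their values were seen, and the ratios are a description of 9 libraries.

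The Spata31d1 genes also differed between Control 1 and Control 2, and the cause was not tested. In Control 1 Spata31d1b was at 233 CPM, against 303 CPM in Control 2, and Spata31d1c at 132 against 168 CPM. Spata31d1d was at 171 against 240 CPM, and Spata31d1a differed least, at 167 against 188 CPM. Spata31d1d was at 227, 217 and 195 CPM in AZ82 1 to 3, 203, 228 and 228 CPM in CW069 1 to 3, and 171, 240 and 172 CPM in Control 1 to 3, so Control 1 and 3 were alike and Control 2 was the highest. Spata31 was at 295, 353 and 319 CPM in AZ82, 291, 295 and 353 CPM in CW069, and 296, 315 and 265 CPM in Control.

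Values after the inhibitors, whose doses differ, are set side by side for Spata18, Spata32 and Spata3. Spata18 was at 563, 618 and 721 CPM in AZ82 1 to 3, 470, 435 and 539 CPM in CW069 1 to 3, and 672 and 545 CPM in Control 1 and 2. Its log2 fold change without Control 3 was 0.06 for AZ82 and -0.34 for CW069 (edgeR adjusted p = 0.467 for CW069), while with all libraries it was 0.40 ± 0.29 and -0.00099 ± 0.29 (SE). Spata32 was at 84.5, 93.5 and 97.8 CPM in AZ82, 73.0, 59.8 and 79.7 CPM in CW069, and 93.3 and 78.5 CPM in Control 1 and 2 (without Control 3, 0.10 for AZ82 and -0.27 for CW069, adjusted p = 0.536). Every CW069 library lay below every AZ82 library for both genes, and below Control 1 and 2 for Spata18 but not for Spata32. Between the inhibitors Spata18 differed by -0.40 ± 0.29 for CW069 over AZ82 (adjusted p = 0.999; -0.39 and 0.318 without Control 3). Its value for CW069 against Control lay too near 0 to carry a sign, being above 0 with RLE scaling, no filter, DESeq2, limma-voom, the compared groups alone or a replicate block.

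Spata3 followed with 376, 373 and 447 CPM in AZ82, 321, 288 and 387 CPM in CW069, and 403, 331 and 149 CPM in Control, where CW069 3 overlapped AZ82. Spata31d1c went the other way, with 152, 147 and 151 CPM in CW069 and 132, 125 and 136 CPM in AZ82. In all, 2 members were lower and 1 higher in every CW069 library than in every AZ82 library, where 5.8% of all genes were lower and 5.52% higher. Between the inhibitors edgeR, DESeq2 and limma-voom called 0 members, against 0.0%, 0.0821% and 0.0% of all genes, and 0 members were higher or lower at an unadjusted p under 0.05, against 2.58% and 2.39%. That count was 5 with these groups fitted alone and 4 without Control 3 (Spata18, Spata32 and Spata3 lower, Spata31d1c higher). Neither of these counts has a share of all genes beside it. Control libraries enter this comparison through the shared spread, the scaling and the filter, but not through the group means. The difference was above 0 in 11 of 29 members, against 49.6% of all genes (11, against 50.9%, without Control 3). Late spermatid markers summed to 20958, 22591 and 24767 CPM in AZ82, 19698, 17348 and 19979 CPM in CW069, and 22760, 20428 and 9725 CPM in Control. Their sums after CW069 lay below those after AZ82, in the same direction as Spata18 and Spata32, and their part in these differences was not tested.

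**Figure D4:**
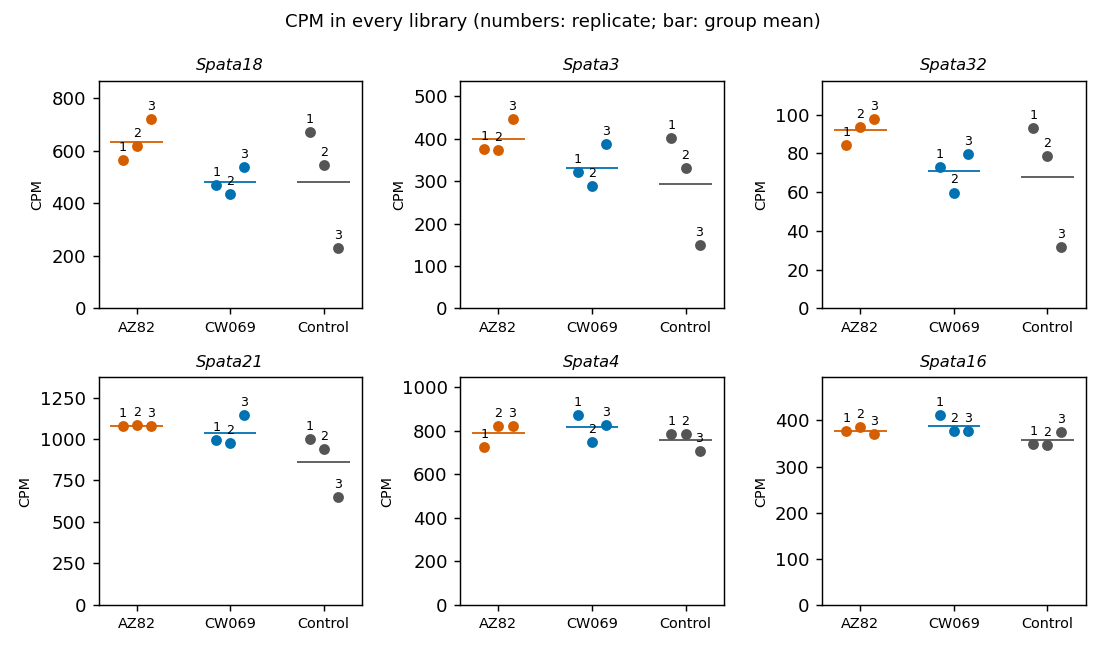
CPM of 6 members in each library, by group, with replicate numbers above the points and bars at group means. Spata18, Spata3 and Spata32 are lowest in Control 3 and vary about 3-fold (3.15, 3.01 and 3.10), Spata21 is tight in AZ82 (1076 to 1085 CPM), and Spata4 and Spata16 vary by 1.23-fold and 1.18-fold over the 9 libraries.

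Genes that act beside Spata products were counted in 5 lists. None of the lists had a gene called by edgeR, DESeq2 or limma-voom against Control. Their counts at an unadjusted p under 0.05 stand beside 4.04% of all genes higher and 4.79% lower after AZ82, and 3.63% higher and 3.71% lower after CW069. In the head-tail coupling list of 14 genes, which holds SUN5 and other proteins of the sperm neck where SPATA6 acts, 3 were higher and 0 lower after AZ82 at an unadjusted p under 0.05, with a median log2 fold change of 0.24 (0.08 without Control 3). After CW069 1 was higher and 0 lower, with a median of 0.09 (-0.05 without Control 3). Of these 14 genes 13 were lower in Control 3 than in both other Control libraries (median log2 ratio -0.54), against 36.2% of all genes. The same count was 7 of 15 in the acrosome formation list (median -0.02) and 9 of 12 in the mitochondrial sheath list (-0.17). It was 1 of 8 in the sperm calcineurin list (0.04) and 3 of 11 in the CYLD list (0.08). Odf1, Odf2 and Oaz3 are also in the list of late spermatid markers, and Sun5 in that of round spermatids. Sun5 was at 148, 159 and 134 CPM in AZ82, against 125, 133 and 112 CPM in Control (0.25 ± 0.09, adjusted p = 0.554; 0.19 without Control 3). Spatc1l was at 122, 120 and 115 CPM in AZ82 and 125, 110 and 125 CPM in CW069, against 106, 101 and 92.5 CPM in Control (mean of both inhibitors 0.26 ± 0.07, adjusted p = 0.479; 0.21 without Control 3). All inhibitor libraries were above all Control libraries for Spatc1l, which was picked by smallest p, and for 2.19% of all genes.

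The acrosome formation list of 15 genes, in whose pathway SPATA16 works, had 4 higher and 0 lower at an unadjusted p under 0.05 after AZ82 (median 0.07, or 0.03 without Control 3), and 1 higher and 0 lower after CW069 (median 0.03, or 0.045 without Control 3). Hipk4, a kinase of spermatid head shaping, was at 142, 144 and 123 CPM in AZ82, against 121, 112 and 115 CPM in Control (0.23 ± 0.08, adjusted p = 0.554). Gba2, a glucosylceramidase, was at 152, 153 and 150 CPM in AZ82, against 130, 138 and 122 CPM in Control (0.22 ± 0.07, adjusted p = 0.554). AZ82 libraries lay above Control for both genes, which were picked by smallest p, and for 6.65% of all genes.

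In the mitochondrial sheath list of 12 genes, 3 were higher and 1 lower after AZ82 (median 0.07, or 0.04 without Control 3) and 2 higher and 0 lower after CW069, at an unadjusted p under 0.05. The CW069 median of 0.04 turned to -0.05 without Control 3. Gpx4, the selenoprotein peroxidase of the sperm midpiece, was at 845, 866 and 859 CPM in AZ82, against 737, 759 and 584 CPM in Control (0.30 ± 0.10, adjusted p = 0.554; 0.19 without Control 3). Armc12 was at 219, 239 and 234 CPM in AZ82 and 242, 204 and 227 CPM in CW069, against 201, 204 and 143 CPM in Control (mean of both inhibitors 0.32 ± 0.11, adjusted p = 0.490; 0.17 without Control 3). Control 3 was the lowest library for both genes.

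The sperm calcineurin list of 8 genes, around SPATA33, holds calcineurin subunits and Vdac channels. After AZ82 it had 0 higher and 2 lower at an unadjusted p under 0.05 (median -0.03, or -0.0050 without Control 3). After CW069 it had 0 in each direction (median -0.0030, or -0.0015 without Control 3). The 2 lower genes were Vdac1 and Ppp3r1. The other calcineurin subunits listed, Ppp3cc, Ppp3r2, Ppp3ca and Ppp3cb, were not lower at this threshold. Vdac1, a mitochondrial outer membrane channel, was at 30.0, 30.1 and 29.1 CPM in AZ82, against 35.5, 32.6 and 37.1 CPM in Control (-0.24 ± 0.08, adjusted p = 0.554), and Ppp3r1, a regulatory subunit of calcineurin, at 27.9, 32.7 and 33.8 CPM, against 36.6, 35.8 and 38.2 CPM (-0.23 ± 0.08, adjusted p = 0.554). The list of CYLD and the linear ubiquitin ligase complex, partners of SPATA2, had 0 higher and 2 lower of 11 after AZ82 (median -0.08, or -0.05 without Control 3) and 0 after CW069 (median -0.05, or -0.0023 without Control 3). These were Tnfrsf1a, the TNF receptor (16.6, 16.5 and 17.4 CPM in AZ82, against 20.6, 19.1 and 21.0 CPM in Control; -0.26 ± 0.09, adjusted p = 0.554), and Ikbkg, a subunit of the kinase that activates NF-kappaB (-0.31 ± 0.12, adjusted p = 0.554). All AZ82 libraries lay below all Control libraries for Tnfrsf1a, Ikbkg, Vdac1 and Ppp3r1, which were picked by smallest p. The same held for 8.62% of all genes.

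Exons of several members overlap those of a gene on the opposite strand in the GENCODE annotation, and whether counting used strand is not given in the sources used here. For Spata25 the overlap with Zswim1 is 21.53% of its exon bases, for Spata48 with Zpbp 11.95%, for Spata2l with Cdk10 11.61%, for Spata4 with an antisense transcript 11.07%, for Spata5 with Nudt6 8.13%, for Spata1 with Ctbs 4.1% and for Spata2 with Rnf114 2.86%. If strand was not used, reads from these opposite-strand stretches cannot be assigned to either gene where both are counted. The antisense transcript at Spata4 is not among the genes counted. Spata24 shares 41.87% with a gene model of its own name on the same strand, which strand cannot separate. That model is not among the genes counted either.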

How the data were processed

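Testis RNA was sequenced in 9 libraries, 3 each for AZ82, CW069 and PBS (Control), with a stranded mRNA kit per the labels' protocols. The deposited values are raw counts per gene, not normalized by the authors. The submitters' processing notes name Trimmomatic, HISAT2, HTSeq and GRCm39, with no settings. The single-library tables and the joint table had 0 differences.

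After a filter on low counts (filterByExpr, 15834 genes kept), TMM-scaled counts entered 1 model over the 9 libraries in edgeR 4.0.16 under R 4.3.3. Two-sided quasi-likelihood tests were adjusted by Benjamini-Hochberg over all genes tested, and calls were made at 0.05. Alternatives were RLE or library size scaling, no filter, a filter of 1 CPM in 3 libraries, DESeq2 1.42.0, limma-voom (limma 3.58.1), the compared groups alone, a replicate block, the Spata31 genes left out, and each library left out.

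Members and lists were chosen with earlier results of these data known. Members named with values were the 4 per direction with the smallest p (mean of at least 1 CPM), the 6 highest in level, and the 3 at each end of the range over libraries and of Control 3. Partner lists gave up to 2 genes by smallest p. Spata7, Spata31, Spata31d1c and Spata31d1d, the ratios, and the promoters of Spata18 and Spata7 were chosen after values were seen. Symbols matched RefSeq and GENCODE M21 (29 of 29 each) on GRCm38, an earlier build than the counts', used for lengths, overlaps and sequences. Another Spata symbol is not reported here.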

Additional observations from a re-analysis of the deposited data

How the results depend on the processing

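Every alternative run for the 4 comparisons called 0 Spata members. For the partner lists calls were counted only by DESeq2 and limma-voom among the alternatives, and both called 0 of the listed genes. The median log2 fold change of members was 0.06 to 0.15 after AZ82 and 0.06 to 0.13 after CW069 under the other scalings, filters, tests and fits. With a library left out it ran from 0.04 to 0.23 after AZ82, from -0.0013 to 0.18 after CW069 and from 0.02 to 0.21 for the mean of both, with the lowest value each time without Control 3. The cause was not tested. The count of members lower in Control 3 than in both other Control libraries was 23 of 29 under both other filters, 24 with RLE scaling and 20 with library size alone, and 19 of 24 with the Spata31 genes left out. The share of all genes (36.2%) was taken only with TMM scaling and filterByExpr, so counts under other scalings and filters have no such share beside them.

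Deviations from the group mean correlated from -0.137 to 0.054 across genes for same-numbered libraries of different groups. For differently numbered libraries they correlated from -0.083 to 0.163. Deviations within a group of 3 constrain each other, so these values cannot exclude a pairing by replicate number. With a replicate block the medians were 0.15 after AZ82, 0.12 after CW069 and 0.13 for both, with 0 members called.

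Several named values, 0 of them called, changed sign. With a library left out, Spata45 ran from -0.196 to 0.0381 after AZ82 and from -0.131 to 0.00310 for the mean of both, Spata31d1c from -0.198 to 0.228 after AZ82, and after CW069 Spata2 ran from -0.113 to 0.00670, Spata18 from -0.337 to 0.316, Spata3 from -0.143 to 0.469 and Spata32 from -0.275 to 0.365. Spata18 after CW069 was also 0.00624 with RLE scaling, 0.000619 with no filter, 0.00605 by DESeq2, 0.133 by limma-voom, 0.00521 with the compared groups alone and 0.0483 with the replicate block. With library size alone, after AZ82, Spata16 was -0.000143 and Spata31d1c -0.0616. The mean of both inhibitors uses all groups, so the fit of the compared groups alone was not run for it.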
